A study of Saccharomyces cerevisiae with 6 samples.

Results

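The 7 histidine biosynthesis genes of budding yeast, HIS1 to HIS7, were followed across 3 strains that differ at SSY1. They were picked by gene symbol, as the genes for the enzymes of the histidine pathway. All 7 were found on the array, each as 1 spot, among 5711 genes measured. The strains are wt, ssy1KO and ssy1T9. The series' design text places all of them in S288C, the common laboratory background, while the array titles name it beside wt only. By its name ssy1KO lacks SSY1, and the title of the series speaks of a naturally occurring variant with an effect on expression. The labels describe ssy1T9 no further. No source used here gives the growth medium, the number of clones or the number of cultures, and no drug, dose or time was labelled.

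Each pair of strains was hybridised on 2 dual-colour arrays with the dyes exchanged, which gives 6 arrays and a closed loop of comparisons. The arrays of ssy1KO and wt are called K1 and K2, those of ssy1T9 and wt T1 and T2, and those of both mutants M1 and M2. In K1 and T1 the Cy5 channel held wt, and in M1 it held ssy1T9. Values are log2 ratios centred per array, so that 0 marks the typical gene of that array. They are written as mutant over wt, or as ssy1KO over ssy1T9. Base 2 is an assumption, since no base is recorded, and the folds below rest on it. The direction of the ratio is likely and not stated: it was taken as the sign in which SSY1 lay lower in ssy1KO. SSY1 in ssy1KO was at -1.65 and -1.10 over wt, and at -1.86 and -1.87 over ssy1T9. With the opposite direction every rise described here would be a fall.

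Ssy1 is a plasma membrane sensor of external amino acids that acts with Ptr3 and Ssy5 to induce amino acid permease genes. Histidine is made from phosphoribosyl pyrophosphate (PRPP) and ATP by a linear pathway whose genes are scattered over the genome; HIS5 and HIS6 share a chromosome and the other members each lie on another. When amino acids or charged tRNAs are scarce, translation of the activator Gcn4 rises and Gcn4 induces genes of many amino acid pathways, histidine included. Bas1 and Pho2 give HIS4 part of its basal transcription and also activate purine genes, to which the histidine pathway is tied because it releases the purine intermediate AICAR.

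In both mutants 6 of the 7 histidine genes rose against wt and none fell. The median log2 difference of all 7 was 0.55 in ssy1KO and 0.47 in ssy1T9, against 0.00 for all genes in either comparison. HIS4 rose most, 1.89-fold in ssy1KO and 1.78-fold in ssy1T9, followed by HIS3. HIS6 did not pass the test in either mutant. Between the mutants no member passed. A gene is said to have risen or fallen where its adjusted p was under 0.05 in a moderated linear model (limma) of all 6 arrays, adjusted by Benjamini-Hochberg over all genes. By the same rule 13.8% of all genes were higher and 10.5% lower in ssy1KO, and 14.1% were higher and 12.1% lower in ssy1T9.

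**Figure D1:**
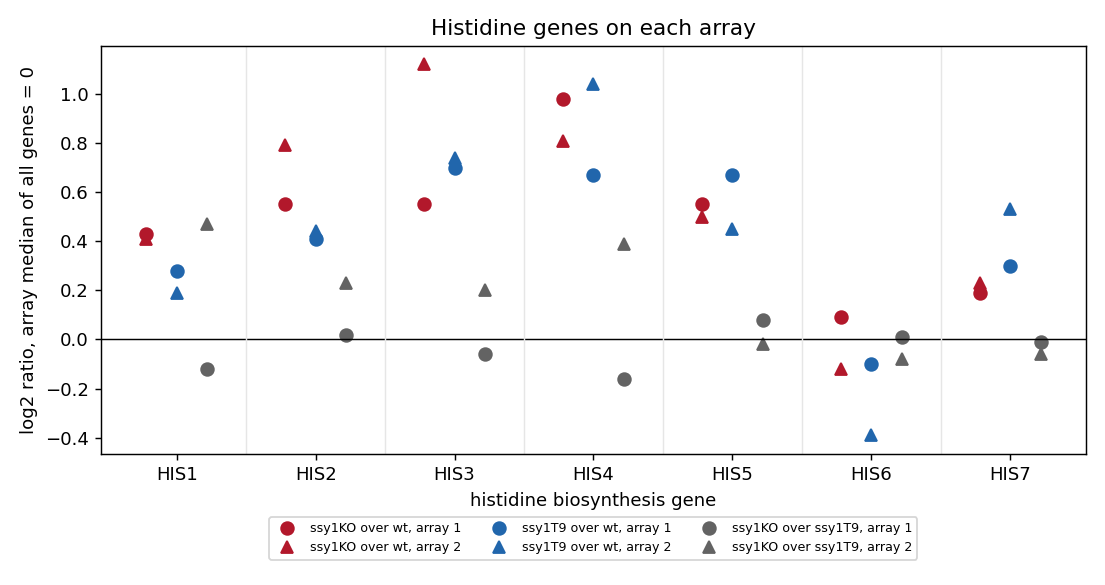
Log2 ratio of each histidine gene (x axis) on each of the 6 arrays (y axis, array median of all genes at 0); red is ssy1KO over wt, blue ssy1T9 over wt and grey ssy1KO over ssy1T9, with circles for array 1 and triangles for array 2 of a pair. All genes but HIS6 lie above 0 on the 4 arrays against wt, and HIS6 lies between -0.39 and 0.09 there.

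HIS1 (YER055C) encodes ATP phosphoribosyltransferase, which opens the pathway and is inhibited by histidine. Its ratios were 0.43 (K1) and 0.41 (K2) for ssy1KO over wt, 0.28 (T1) and 0.19 (T2) for ssy1T9 over wt, and -0.12 (M1) and 0.47 (M2) for ssy1KO over ssy1T9. It lay above 0 on all 4 arrays against wt, whereas the arrays that compare the mutants had opposite signs. In the fit HIS1 rose 1.33-fold in ssy1KO (log2 0.42, SE 0.09, adjusted p = 0.00105) and 1.18-fold in ssy1T9 (log2 0.24, SE 0.09, adjusted p = 0.0479). The call in ssy1T9 was lost without any of K1, K2, T1 or M1, at log2 0.21, 0.27, 0.16 and 0.17 (adjusted p = 0.198, 0.0517, 0.439 and 0.228). The call in ssy1KO was lost without K1, at 0.35 (adjusted p = 0.0915). Of 15 other settings tried, the HIS1 call held under 6 in ssy1T9 and under 13 in ssy1KO.

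HIS4 (YCL030C) encodes a protein with several activities, which carries out the steps after His1 and also the last step, the oxidation of histidinol to histidine. Arrays K1 and K2 gave 0.98 and 0.81, T1 and T2 gave 0.67 and 1.04, and M1 and M2 gave -0.16 and 0.39. Every array against wt lay far above 0, and ssy1KO and ssy1T9 overlapped. The fitted log2 difference was 0.92 in ssy1KO (SE 0.09, adjusted p = 1.5e-08) and 0.83 in ssy1T9 (SE 0.09, adjusted p = 8.1e-08). In the order of all genes by that difference, HIS4 stood at place 63 in ssy1KO and 72 in ssy1T9. Both calls held under all 15 other settings tried. With any 1 array left out, the values ran from 0.80 to 1.08 in ssy1KO and from 0.77 to 0.91 in ssy1T9.

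HIS6 (YIL020C) encodes the isomerase that acts between His4 and His7. Its ratios were 0.09 (K1) and -0.12 (K2) for ssy1KO over wt, -0.10 (T1) and -0.39 (T2) for ssy1T9 over wt, and 0.01 (M1) and -0.08 (M2) for ssy1KO over ssy1T9. It was the lowest member on all 4 arrays against wt. The fitted log2 difference was -0.10 in ssy1KO (95% interval -0.27 to 0.06, adjusted p = 0.386) and -0.16 in ssy1T9 (95% interval -0.32 to 0.01, adjusted p = 0.167). Without centring the values were 0.055 and 0.015, so their sign depends on where 0 is placed, and neither passed there. The interval in ssy1KO reaches up to a 1.05-fold rise, and that in ssy1T9 up to a 1.01-fold rise.

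HIS7 (YBR248C) encodes the glutamine amidotransferase and cyclase that takes nitrogen from glutamine and releases AICAR. Arrays K1 and K2 gave 0.19 and 0.23, T1 and T2 gave 0.30 and 0.53, and M1 and M2 gave -0.01 and -0.06. It was the smallest of the rises in ssy1KO. On the arrays against wt its readings in ssy1KO lay below those in ssy1T9. This is no test, and the share of all genes so separated was not counted. Read through the other mutant instead of directly against wt, HIS7 had the opposite order, at 0.38 in ssy1KO and 0.245 in ssy1T9. The direct comparison of the mutants did not pass for HIS7 (adjusted p = 0.964 by limma). HIS7 rose in ssy1KO (log2 0.27, SE 0.08, adjusted p = 0.0159) and, 1.28-fold, in ssy1T9 (log2 0.36, SE 0.08, adjusted p = 0.0015). K1 and K2 alone put it at 0.21, without a call (adjusted p = 0.143). The ssy1KO call was also lost without K1, T2 or M1, at 0.29, 0.22 and 0.23 (adjusted p = 0.105, 0.0616 and 0.0825), and the ssy1T9 call without T2, at 0.27 (adjusted p = 0.0685). Of 15 other settings tried, the HIS7 call held under 8 in ssy1KO and under 13 in ssy1T9.

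HIS3 (YOR202W) encodes imidazoleglycerol-phosphate dehydratase and is widely used as a selection marker. Its ratios were 0.55 (K1) and 1.12 (K2) for ssy1KO over wt, 0.70 (T1) and 0.74 (T2) for ssy1T9 over wt, and -0.06 (M1) and 0.20 (M2) for ssy1KO over ssy1T9. K1 and K2 differed by 0.57, more than for 92.7% of genes, while T1 and T2 differed by 0.04. HIS3 rose 1.77-fold in ssy1KO (log2 0.82, SE 0.08, adjusted p = 3.1e-08) and 1.66-fold in ssy1T9 (log2 0.74, SE 0.08, adjusted p = 1.9e-07). Without K2, the higher reading, the value in ssy1KO was 0.72 and still passed (adjusted p = 1.8e-04).

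HIS5 (YIL116W) encodes histidinol-phosphate aminotransferase. Arrays K1 and K2 gave 0.55 and 0.50, T1 and T2 gave 0.67 and 0.45, and M1 and M2 gave 0.08 and -0.02. The mutants were nearly level for this gene, and all arrays against wt stayed above those that compare the mutants. HIS5 rose 1.46-fold in ssy1KO (log2 0.55, SE 0.08, adjusted p = 6.7e-06) and 1.45-fold in ssy1T9 (log2 0.54, SE 0.08, adjusted p = 8.4e-06).

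HIS2 (YFR025C) encodes histidinolphosphatase, which makes the histidinol that His4 oxidises. Its ratios were 0.55 (K1) and 0.79 (K2) for ssy1KO over wt, 0.41 (T1) and 0.44 (T2) for ssy1T9 over wt, and 0.02 (M1) and 0.23 (M2) for ssy1KO over ssy1T9. The readings in ssy1KO lay above those in ssy1T9, as they did for HIS1. With 2 arrays each this is no test, and the share of all genes so separated was not counted. Read through the other mutant instead of directly against wt, HIS2 was level, at 0.55 in ssy1KO and 0.545 in ssy1T9. By that route HIS1 was at 0.41 and 0.245. HIS2 rose 1.55-fold in ssy1KO (log2 0.63, SE 0.08, adjusted p = 9.8e-07) and 1.38-fold in ssy1T9 (log2 0.47, SE 0.08, adjusted p = 7.3e-05). The direct comparison of the mutants for this gene did not pass, as given below.

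**Figure D2:**
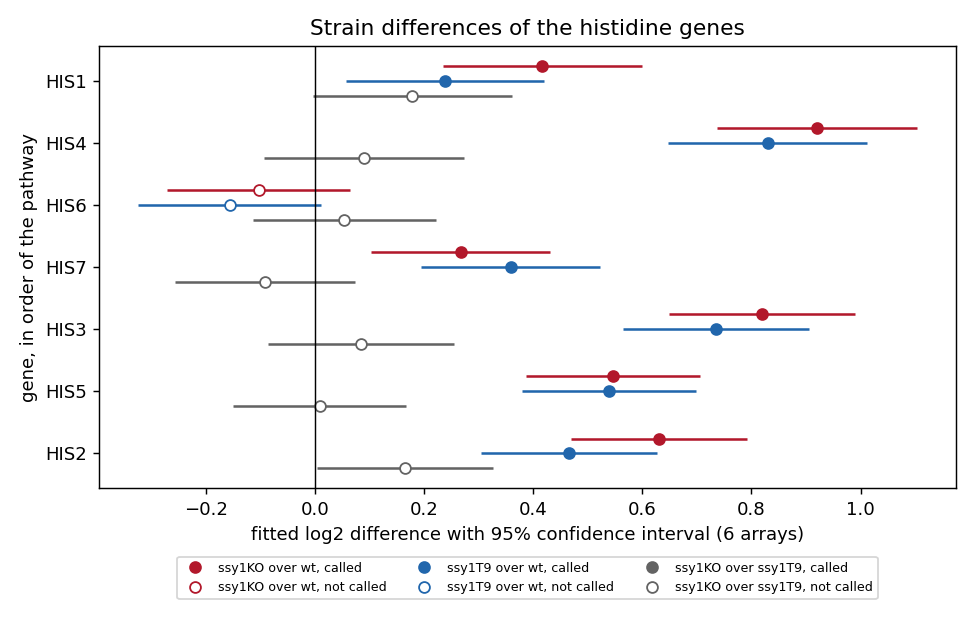
Fitted log2 difference (x axis) of each histidine gene, in the order of the pathway (y axis), for ssy1KO over wt (red), ssy1T9 over wt (blue) and ssy1KO over ssy1T9 (grey); bars are 95% confidence intervals from the fit over 6 arrays, and filled points have an adjusted p under 0.05. HIS4 and HIS3 lie farthest to the right in both mutants, HIS6 lies at -0.10 and -0.16 with intervals that include 0, and no grey point is filled.

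Several members differed from each other by more than their intervals. In ssy1KO the order from the largest difference down was HIS4, HIS3, HIS2, HIS5, HIS1, HIS7 and HIS6, and in ssy1T9 it was HIS4, HIS3, HIS5, HIS2, HIS7, HIS1 and HIS6. Neighbours in these orders had overlapping 95% intervals, with the exception of the last step down to HIS6 in each mutant. The order therefore separates HIS4 from HIS7 and HIS7 from HIS6 in ssy1KO, where their intervals were 0.74 to 1.10, 0.10 to 0.43 and -0.27 to 0.06, but not HIS4 from HIS3. Position in the pathway did not line up with the size of the rise: HIS1 at the entry, HIS6 and HIS7 had the 3 smallest values in both mutants, but HIS4, which acts between HIS1 and HIS6 and again at the end, had the largest. Against a threshold of a 1.2-fold change, with limma's treat, HIS2, HIS3, HIS4 and HIS5 passed in ssy1KO (adjusted p from 3.5e-06 for HIS4 to 0.0147 for HIS5), where 3.24% of all genes passed upward. In ssy1T9 HIS3, HIS4 and HIS5 passed (adjusted p from 2.9e-05 for HIS4 to 0.0181 for HIS5), where 3.12% of all genes did, and HIS2 did not (adjusted p = 0.139).

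**Figure D3:**
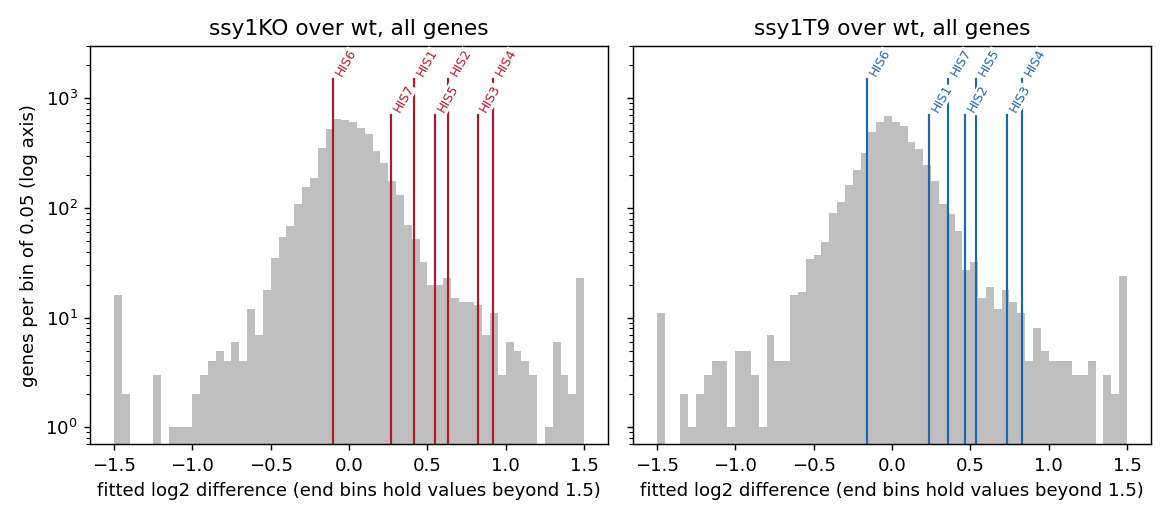
Distribution of the fitted log2 difference over all 5711 genes (grey bars, number of genes per bin on a log axis) for ssy1KO over wt (left) and ssy1T9 over wt (right), with the 7 histidine genes as coloured lines. HIS3 and HIS4 lie above 98.3% or more of all genes in both panels, whereas HIS6 lies on the lower side of the peak, above 26.8% of genes in ssy1KO and 18.5% in ssy1T9.

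Centred values were above 0 on both K1 and K2 for 6 of 7 members, against 28.7% of all genes, and on both T1 and T2 for 6 of 7, against 30.1%. In both cases HIS6 was the exception. The comparisons with wt share the wt strain, so their likeness is no independent repeat, and the values of each are given side by side here.

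Between ssy1KO and ssy1T9 none of the 7 members differed by limma, where 0.298% of all genes did. The largest fitted differences were 0.18 for HIS1 (95% interval -0.0036 to 0.36, adjusted p = 0.927) and 0.17 for HIS2 (95% interval 0.0036 to 0.33, adjusted p = 0.905), both higher in ssy1KO. Leaving out 1 array moved the HIS1 difference between 0.04 (without M2) and 0.32 (without M1), and it was not called in any of these fits. HIS7 lay at -0.09 (95% interval -0.26 to 0.07, adjusted p = 0.964). At an unadjusted p under 0.05 only HIS2 passed, against 5.43% of all genes. Over all members the intervals ran from a 0.837-fold to a 1.28-fold level in ssy1KO relative to ssy1T9. Of the 7 genes, 1 (HIS2) was above 0 on both M1 and M2, against 24.5% of all genes.

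The loop allows each strain difference to be read by separate routes. For ssy1KO over wt, the direct mean of K1 and K2 was 0.895 for HIS4, and the route through ssy1T9 gave 0.97. For HIS3 these were 0.835 and 0.79, for HIS2 0.67 and 0.55, for HIS5 0.525 and 0.59, and for HIS1 0.42 and 0.41. The routes stood farther apart for HIS7, at 0.21 and 0.38, and for HIS6, at -0.015 and -0.28. Summed around the loop, the pair means missed closure by 0.27 for HIS6 and by -0.17 for HIS7, and by at most 0.12 in size for the other members. The median size over all genes was 0.13, and none of the 7 exceeded the 95th percentile of 0.36.

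Dye effects were measured per gene by the same fit. They were largest for HIS3 (0.145) and HIS4 (0.125), above those of 83.7% and 77.6% of all genes in size. M1 and M2 differed by 0.59 for HIS1 and by 0.55 for HIS4, more than for 97.8% and 97.1% of all genes. The fitted dye effect of HIS1 was 0.08, and its gaps were 0.02 between K1 and K2 and 0.09 between T1 and T2. Each pair was run in both orientations and the fit holds a dye term, so a constant dye effect does not shift the fitted differences. Gaps between arrays that this term does not take up remain in the spread.

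Genes that feed, use or regulate the pathway, were taken from a list of 14. In ssy1KO 2 rose and 1 fell, and in ssy1T9 1 rose and 4 fell, with medians of -0.01 and -0.06. The shares over all genes were 13.8% higher and 10.5% lower in ssy1KO, and 14.1% and 12.1% in ssy1T9. The counts of the list were not tested against these shares. GLN1, encoding glutamine synthetase, which makes the glutamine used by His7, rose 2.23-fold in ssy1KO (log2 1.16, SE 0.12, adjusted p = 8.8e-08) and 1.74-fold in ssy1T9 (log2 0.80, SE 0.12, adjusted p = 2.6e-05). Arrays K1 and K2 gave 1.03 and 0.84, T1 and T2 gave 0.99 and 1.04, and M1 and M2 gave 0.09 and 1.07. The array readings against wt were all at or above those of HIS4, but M1 and M2 disagreed by 0.98 and the loop missed closure by -0.66. With a robust prior variance in limma the GLN1 calls were lost at the same values (adjusted p = 0.0543 in ssy1KO and 0.12 in ssy1T9).

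Of the 5 PRPP synthetase genes PRS1 to PRS5, which supply the starting compound, none rose. PRS1 fell by 0.41 in both mutants (SE 0.08, adjusted p = 3.6e-04 for each), and without centring lay at -0.25 and -0.24 and did not pass (adjusted p = 0.0546 and 0.0703). PRS3 fell by 0.25 in ssy1T9 (SE 0.09, adjusted p = 0.0489), a call that held under 5 of 15 other settings. Its value ran from -0.36 without T1 to -0.10 without T2, and was -0.08 without centring. ADE16 and ADE17 encode the isozymes that convert AICAR onward to the purines. ADE16 rose in ssy1KO (log2 0.30, SE 0.09, adjusted p = 0.0176), a call lost without K1 (0.22, adjusted p = 0.318), without T1 (0.29, adjusted p = 0.0772) or without M2 (0.22, adjusted p = 0.0569), and was at 0.04 in ssy1T9. The ADE16 ratio was 0.62 on K1 but -0.18 on K2, a gap larger than for 97.8% of genes. Without K2 the ADE16 value in ssy1KO was 0.49 and passed (adjusted p = 0.00163). ADE17 fell by 0.45 in ssy1T9 (SE 0.08, adjusted p = 1.3e-04) and was at -0.16 in ssy1KO (adjusted p = 0.161). Between the mutants neither differed by the test (0.27 and 0.29, adjusted p = 0.607 and 0.238).

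The histidine permease gene HIP1 fell by 0.28 in ssy1T9 (SE 0.09, adjusted p = 0.0313) and was at -0.14 in ssy1KO (adjusted p = 0.307). The ssy1T9 call held under 7 of 15 other settings, and without T2 the value was -0.06. HTS1, encoding histidyl-tRNA synthetase, was at 0.21 and 0.20 (SE 0.09, adjusted p = 0.0823 and 0.0837). Without centring HTS1 lay at 0.365 and 0.375 and passed (adjusted p = 0.00778 and 0.00589); it passed under 1 of 15 other settings in ssy1KO and 3 of 15 in ssy1T9. The regulators GCN4, GCN2, BAS1 and PHO2 did not pass in either mutant. GCN4 was at 0.03 in ssy1KO and -0.07 in ssy1T9 (SE 0.09, adjusted p = 0.835 and 0.647). These values average routes that disagreed. In ssy1KO GCN4 was at -0.115 directly and at 0.325 through the other mutant, and in ssy1T9 at 0.08 and -0.36. The loop missed closure by -0.44 for GCN4 and by -0.38 for HTS1, in size above the 95th percentile of 0.36 over all genes. GCN2, which encodes the kinase that senses uncharged tRNA and raises GCN4 translation, was at 0.10 in both (adjusted p = 0.375 and 0.415), and passed only without centring, at 0.26 and 0.27. These arrays measure transcripts, so Gcn4 protein and its translation were not seen.

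**Figure D4:**
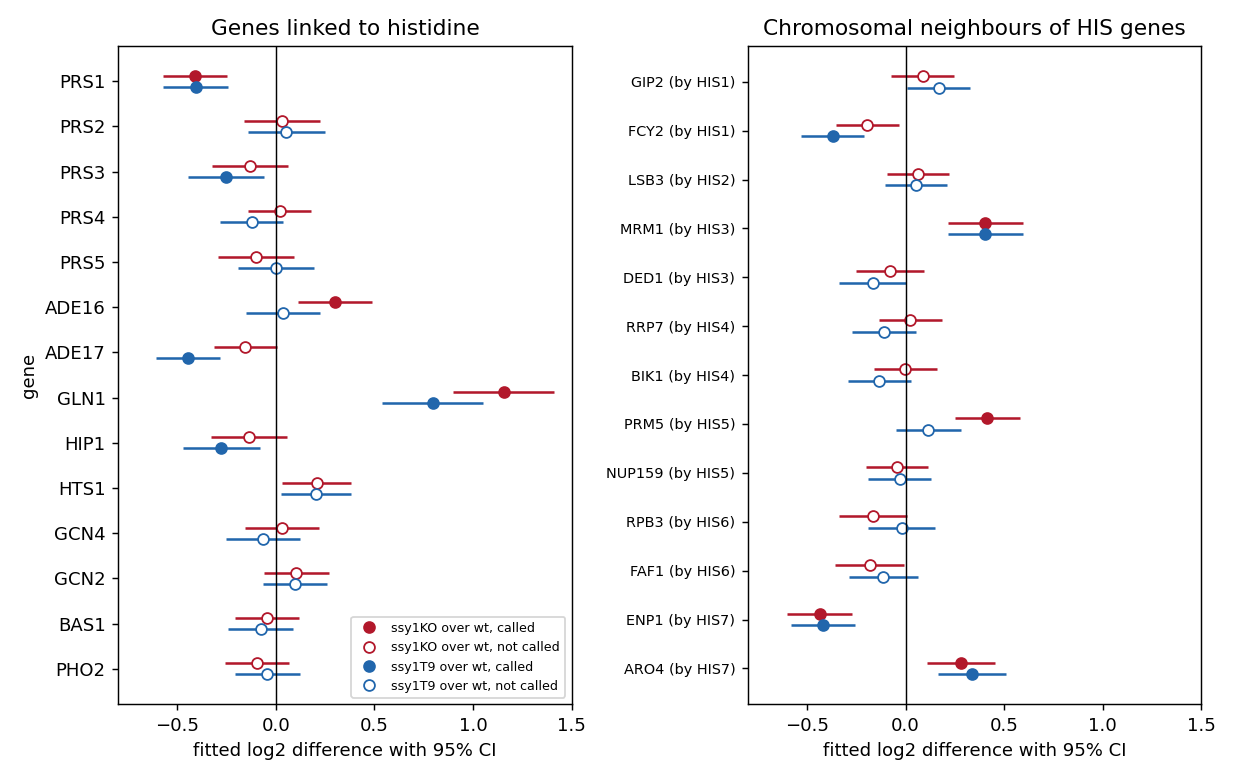
Fitted log2 differences with 95% confidence intervals (x axes) for the 14 genes linked to histidine supply, use and regulation (left) and for the 13 measured genes next to a histidine gene on the chromosome (right), in ssy1KO over wt (red) and ssy1T9 over wt (blue); filled points have an adjusted p under 0.05. GLN1 stands apart at 1.16 and 0.80, the 4 regulators lie around 0, and beside the HIS genes MRM1 and ARO4 are filled on the right of 0 in both mutants.

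Genes beside the members on the chromosome were compared as well, with the order of genes taken from the R64 reference; of 14 immediate neighbours 13 were measured. In ssy1KO 3 rose and 1 fell, in ssy1T9 2 rose and 2 fell, and the medians were 0.00 and -0.03. Of all genes, 13.8% were higher and 10.5% lower in ssy1KO, and 14.1% and 12.1% in ssy1T9. The counts of neighbours are small and were not tested against these shares. MRM1, the neighbour of HIS3 and the gene of a mitochondrial rRNA methyltransferase, rose by 0.41 in both mutants (SE 0.09, adjusted p = 0.00225 and 0.00201). Its ratio was 0.25 on K1 and 0.80 on K2. Without K2 MRM1 was at 0.195 in ssy1KO and was not called (adjusted p = 0.141), and without K1 it was at 0.455 and was not called either (adjusted p = 0.0502). From T1 and T2 alone it was at 0.285 in ssy1T9 (adjusted p = 0.114).

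ARO4, the neighbour of HIS7, encodes an enzyme at the entry to aromatic amino acid synthesis. It rose by 0.28 in ssy1KO and 0.34 in ssy1T9 (SE 0.08, adjusted p = 0.0157 and 0.00409), close to HIS7 itself at 0.27 and 0.36. Without K1 or K2, ARO4 was at 0.20 and 0.22 in ssy1KO and did not pass (adjusted p = 0.288 and 0.156). On the other side of HIS7, ENP1, a ribosome biogenesis gene, fell by 0.44 and 0.42 (SE 0.08, adjusted p = 2.0e-04 and 2.9e-04); without centring its fall in ssy1T9 was 0.25 and did not pass (adjusted p = 0.051). PRM5, beside HIS5, rose by 0.41 in ssy1KO (SE 0.08, adjusted p = 3.7e-04), where HIS5 rose by 0.55, and lay at 0.11 in ssy1T9 (adjusted p = 0.318). FCY2, the purine and cytosine permease gene beside HIS1, fell by 0.37 in ssy1T9 (SE 0.08, adjusted p = 8.6e-04) while HIS1 rose; without centring it lay at -0.20 and was not called (adjusted p = 0.114), nor was it without T1, at -0.32 (adjusted p = 0.0514). DED1, on the other side of HIS3, and RRP7 and BIK1, beside HIS4, did not pass in either mutant, at values from -0.17 to 0.025.

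HIS3 is also 1 of several genes that are often deleted in laboratory strains. In ssy1KO LEU2 lay at 2.38 and MET17 at 2.17, and in ssy1T9 they lay at 2.21 and 2.18. LYS2 was at 0.59 and 0.70. URA3 lay at 2.12 in ssy1KO but at -0.04 in ssy1T9, whereas TRP1 and ADE2 were at -0.09 and -0.02 in ssy1KO and at -0.23 and 0.01 in ssy1T9. HIS3, at 0.82 and 0.74, lay near LYS2 and HIS4 and well under LEU2 and MET17. LEU1, a branched-chain gene outside this set of marker genes, also lay high, at 1.98 in ssy1KO and 2.02 in ssy1T9. No source used here gives the genotypes at these loci, and their part in the HIS3 values was not tested. Leaving HIS3 aside, 5 of the other 6 histidine genes rose in each mutant.

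In the reported fit the histidine genes had a larger share of members that rose than any of 4 other amino acid lists. This is a description with no test. The share includes HIS1 and HIS7, whose calls were lost under several other settings. Without K1 the number of histidine genes higher in ssy1KO was 4. Counts of the other lists were not recomputed under those settings. Over all genes, 13.8% rose and 10.5% fell in ssy1KO, and 14.1% rose and 12.1% fell in ssy1T9. Arginine genes rose in 4 of 7 measured cases in either mutant, with medians of 0.53 and 0.50. The medians of the histidine genes were 0.55 and 0.47, so the arginine median was the higher in ssy1T9. Lysine genes rose in 5 of 8 cases and fell in 1 in either mutant, with medians of 0.35 and 0.37. Aromatic genes rose in 7 of 14 cases in ssy1KO, and in ssy1T9 rose in 8 and fell in 2, with medians of 0.24 and 0.28. Branched-chain genes rose in 6 of 11 cases in either mutant, with medians of 0.36 and 0.41 and a maximum of 2.38 (LEU2), well above the 0.92 of HIS4.

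The genes most like the mean of the 7 members were sought by the root mean square difference over the 6 centred arrays. The mean itself was 0.48 and 0.53 on K1 and K2, 0.42 and 0.43 on T1 and T2, and -0.03 and 0.16 on M1 and M2. The closest were BDH2 (0.063), TDA1 (0.065), TDA6 (0.069), YDR248C (0.070), IBA57 (0.071) and MRX3 (0.073), in log2 units, against a median of 0.421 over all genes. Their fitted differences, whose sign and size this choice fixes, ran from 0.44 for MRX3 to 0.53 for TDA6 in ssy1KO and from 0.40 for TDA1 to 0.45 for IBA57 in ssy1T9. The members themselves were less close to their own mean, from 0.114 for HIS2 to 0.513 for HIS6.

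**Figure D5:**
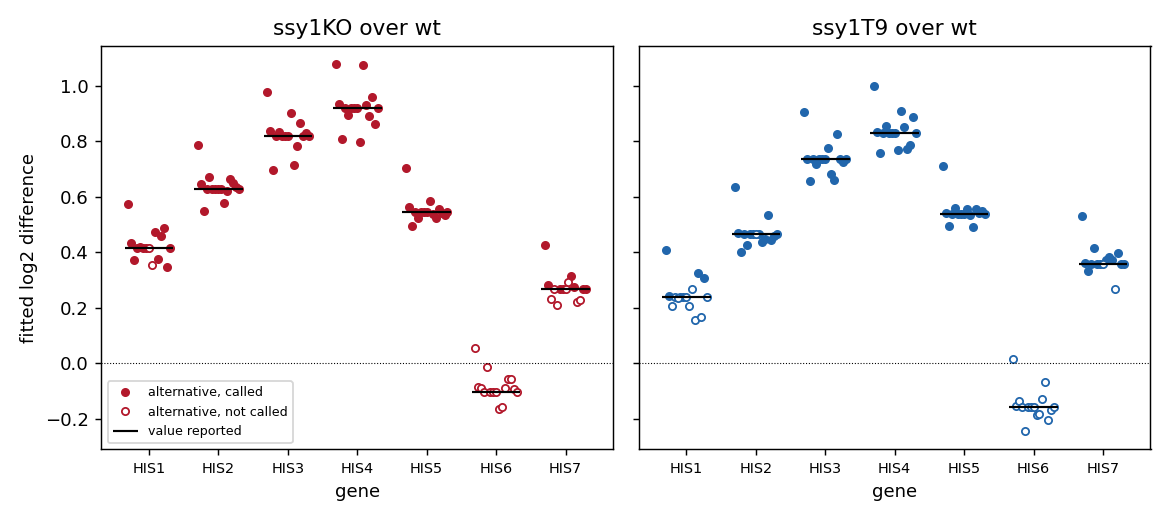
Fitted log2 difference (y axis) of each histidine gene (x axis) under 15 other settings of the processing and the fit, for ssy1KO over wt (left) and ssy1T9 over wt (right); filled points passed at an adjusted p under 0.05, open points did not, and black bars mark the reported values. HIS3, HIS4 and HIS5 are filled throughout in both panels, HIS6 is open throughout, and open points occur for HIS1 and HIS7 in both panels and for HIS2 on the right.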

How the data were processed

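Total RNA of 2 strains per array was labelled with the Genisphere 3DNA system for Cy5 and Cy3, per the labels. The authors deposited 1 log ratio per spot and array, taken here as log2; scanner, background correction, normalization, log base, direction and genome build were not given in the sources used here. As deposited, the log2 columns were not centred: medians over genes ran from -0.58 to -0.08. Of 7744 rows, with 0 missing values, 6116 had 1 gene symbol, 0 several and 1628 none in the platform annotation, and 6111 matched an R64 gene. Spots of a gene were averaged, giving 5711 genes.

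Arrays were centred on their median over genes. A model with a dye intercept and terms for ssy1KO and ssy1T9 was fitted (limma 3.58.1 under R 4.3.3, lmFit and eBayes, all 6 arrays, 3 residual and 20.7 prior degrees of freedom); ssy1KO against ssy1T9 is a contrast of that fit. Tests are two-sided. SE and 95% intervals come from the fit. Nothing says that arrays came from separate cultures, so p-values measure only the spread between arrays, which may be technical, and their number limits precision (median SE 0.08). On simulated data for 5711 genes, 100 genes were changed by log2 0.5 and 100 by log2 1, alike in both mutants. Noise was normal, independent between arrays and at the fitted spread. Of the genes changed by 0.5, 99% were called in ssy1KO against wt and 98% in ssy1T9 against wt. These shares hold for that setting, which leaves out shifts shared by genes of an array, and do not give the power of the real arrays. Other settings changed centring, scaling, the dye term, the arrays used, replicates, prior, spots and the null hypothesis.

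Members and lists were chosen with earlier results of these data known. The genes named are the 7 members, SSY1, linked genes that were called, up to 4 others by role (the 4 regulators), immediate neighbours, marker genes and the 6 most alike genes. HTS1 and LEU1 were added after their values were seen.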

Additional observations from a re-analysis of the deposited data

How the results depend on the processing

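Of 315 recomputed values of the 7 histidine genes (15 other settings, 3 comparisons), 294 kept their side of the threshold and 21 lost a call. None gained one and no called value changed sign. HIS6 and the comparison between the mutants had no call to lose. All lost calls were of HIS1, HIS7 or HIS2. The HIS1 call held under 13 of 15 settings in ssy1KO and 6 in ssy1T9, and the HIS7 call under 8 and 13. The HIS2 call in ssy1T9 held under 14. Without 1 array, the members higher numbered 4 to 6 in ssy1KO and 5 to 6 in ssy1T9, with 0 between the mutants. Against a 1.2-fold change, 3 members passed in ssy1T9 instead of 6. Calls over all genes (1386 in ssy1KO, 1494 in ssy1T9 and 17 between the mutants) numbered 740, 812 and 6 without a dye term, 882, 859 and 7 from the arrays of the pair alone, and 265, 283 and 6 against a 1.2-fold change. With arrays scaled to one spread, 883 were called in ssy1KO. Without 1 array they ranged from 626 to 1513, from 793 to 1457 and from 7 to 19; the lowest came without K1, without T1, and without K1 or M1. Without T1, 11 genes were called between the mutants. Without centring the typical gene lay at 0.16 in ssy1KO and 0.17 in ssy1T9, and 92.1% and 91.3% of calls were higher, against 56.9% and 53.7%; the members' medians were then 0.705 and 0.64. With each dye-swapped pair averaged to 1 value, the count of members higher was 6 in both mutants. Causes were not tested. Robust regression did not converge for many genes on 6 arrays and is not given. No paired analysis was possible because array numbers only name arrays within a pair of strains.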

Other observations

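HIS3 and its chromosomal neighbour MRM1 showed a like gap between K1 and K2, 0.57 and 0.55, larger than for 92.7% and 91.8% of genes. Their gaps between T1 and T2 were 0.04 and 0.01. Other neighbours of members had gaps of this size too: DED1, on the other side of HIS3, had one of 0.65 (larger than for 95.4% of genes), and RRP7, beside HIS4, one of 0.55. This was noticed after the values were seen and was not tested.

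On M2, the array with ssy1KO in Cy5, the median of the 7 members was 0.20, against -0.01 on M1. The SD among members was 0.22 and 0.08 on these arrays, where that of all genes was 0.18 and 0.16.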
